A study of Mus musculus with 2 samples.

Results

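The 10 genes described here encode the TEAD, Hippo and nuclear factor I (NFI) regulators of skeletal muscle: the DNA-binding factors Tead1, Tead2, Tead3 and Tead4, their coactivators Yap1 and Wwtr1 (the gene of TAZ), and the DNA-binding factors Nfia, Nfib, Nfic and Nfix. The rule names them by family and uses no measured value, although they were chosen with earlier results of these data known. They are 10 of 55536 annotated genes. All 10 were found by symbol and gene identifier in the transcript tables, and all 10 passed the minimum mean of 10 counts for testing. The samples were total RNA of gastrocnemius, a mixed muscle of the calf, taken from male mice at an age of 8 to 10 months. The mice were B6CASTF1/J hybrids, whose parents are the laboratory strain C57BL/6J and the wild-derived strain CAST/EiJ, and were obtained from The Jackson Laboratory. The labels name 1 group, no treatment and no transgene, and number 2 animals under 1 shared donor identifier, with 1 library each, called replicate 1 and replicate 2 below.

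In the Hippo pathway, a cascade of MST (Stk3 and Stk4) and LATS kinases phosphorylates YAP and TAZ and so keeps them out of the nucleus. YAP and TAZ do not bind DNA themselves and act through TEAD proteins, which recognise the M-CAT element, a motif first described in promoters of muscle genes. NFI proteins bind a different, palindromic element as dimers, and NFIX is known in muscle for the switch from the embryonic to the fetal gene programme.

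The tissue label was checked against 10 fibre markers, which summed to 80340 TPM (the abundance unit used for levels below, corrected for transcript length and library size) in replicate 1 and 84913 TPM in replicate 2. Ckm, muscle creatine kinase, had the highest mean of them, from 17288 and 18464 TPM, with the skeletal actin Acta1 slightly above it in replicate 1 (17309 and 17814 TPM). Markers of other cells were present at far lower summed levels: fibroblasts at 298 and 331 TPM, pericytes and smooth muscle at 171 and 203 TPM, adipocytes at 85.03 and 101 TPM, endothelium at 79.05 and 86.3 TPM, satellite cells at 62.9 and 54.6 TPM, tendon at 39.2 and 42.3 TPM, Schwann cells and nerve at 34.5 and 35.9 TPM, and macrophages at 12 and 11.6 TPM. None of these markers stood at 0 in both animals. Some sums rested mostly on few genes. By mean TPM these were Fabp4 (59.8) for adipocytes and Rgs5 (62.5) and Abcc9 (62.0) for pericytes. For satellite cells they were Itga7 (28.3) and Sdc4 (18.9), with Pax7 at 0.41. The sums are therefore no measure of the amount of each cell type. The sum of estimated counts over genes was 36792611 for replicate 1 against 37752249 for replicate 2. A gene with no counts may therefore have had up to 0.0815 and 0.0795 CPM (counts scaled to library size), which is 3 counts. Intervals and limits cover counting error only, and in a whole muscle fewer cells of a type cannot be told apart from less RNA per cell.

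The 10 genes covered a wide range of levels, with Nfix, Tead1 and Nfic at the top and Tead3 and Tead2 at the bottom. Nfix was the highest at 209.7 TPM in replicate 1 and 264 TPM in replicate 2, which placed its mean at rank 207 among nuclear protein-coding genes. Tead1 held 112 and 113 TPM (rank 458) and Nfic 97.5 and 113 TPM (rank 501). These levels stood beside those of the best known muscle regulators. In a list of 34 transcription factors of muscle, Nfix ranked 1, ahead of the myocyte enhancer factor Mef2c at 191 ± 19.7 TPM (SD, n = 2). Tead1 ranked 3, Nfic 4, Nfib 12 and Nfia 15. Coding transcripts of Nfix alone held 192 and 200.0 TPM. Mef2c held 177 and 204 TPM over all its transcripts. Its coding transcripts were not taken apart, so the 2 genes cannot be ordered on coding transcripts. The ranks rest on 1 of the 2 quantifications deposited. Of the myogenic factors in the same list, Myf6 ranked 9 at 55.4 ± 8.13 TPM, above Nfib and Nfia. Myod1 held 5.48 ± 0.644, Myog 4.27 ± 3.62 and Myf5 0.735 ± 0.0919 TPM.

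Nfib held 40.1 and 39.6 TPM, Nfia 22.2 and 26.2 TPM, Yap1 17.6 and 15.2 TPM and Wwtr1 11.1 and 10.03 TPM. Tead4 held 3.37 and 3.3 TPM, Tead3 1.66 and 1.41 TPM, and Tead2 0.32 and 0.97 TPM. Along the order of mean TPM, the ranges of Tead1 and Nfic overlapped over the animals, and those of the other 8 pairs of neighbours did not. A separate quantification deposited for the same libraries, made from reads and a transcript index, gave lower levels for Nfix (158 and 166 TPM) and Tead1 (82.5 and 80.1 TPM). In it, the pairs Tead1 and Nfic, Nfia and Yap1, and Tead3 and Tead2 overlapped, and 6 of 10 genes kept their place in the order.

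**Figure D1:**
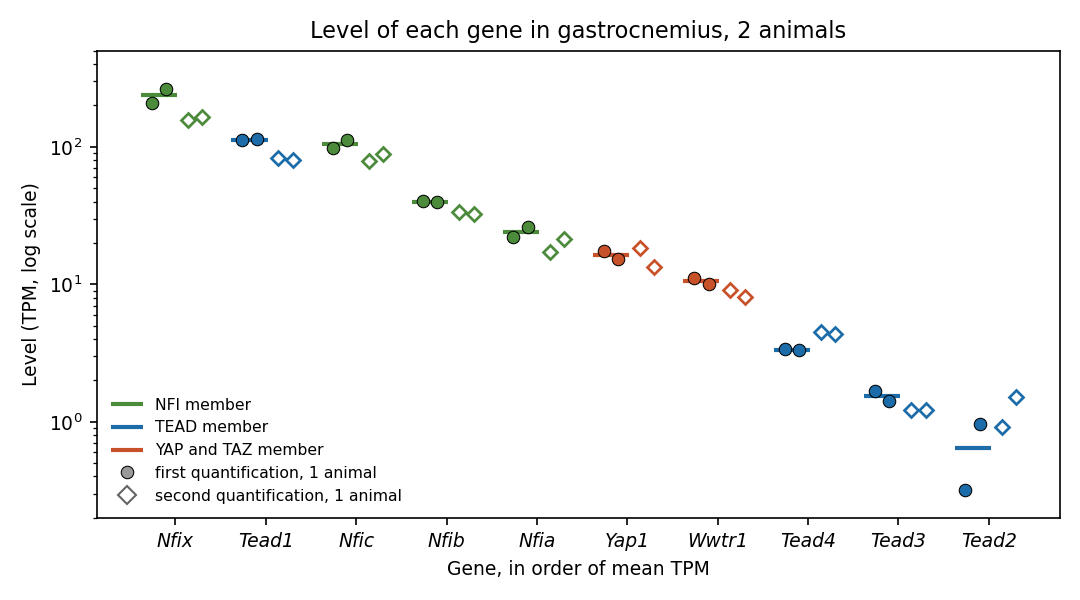
Level of each gene in TPM on a log axis, in order of mean TPM; filled circles are the 2 animals in the gene table (replicate 1 left, replicate 2 right), bars are their mean, and open diamonds are the same animals in the separate quantification. Nfix (209.7 and 264 TPM), Tead1 (112 and 113 TPM) and Nfic (97.5 and 113 TPM) lead, and Tead4, Tead3 and Tead2 lie below 5 TPM.

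Among the DNA-binding partners of YAP and TAZ, 1 gene held nearly the whole family sum. Tead1 (ENSMUSG00000055320.17, chromosome 7, 112679318 to 112906807, plus strand, mm10) made up 95.4% of summed TEAD TPM in replicate 1 and 95.2% in replicate 2, with 16356 and 17460 counts. Tead4 (ENSMUSG00000030353.15, chromosome 6, 128224288 to 128300823, minus strand), a factor studied in myoblast differentiation and in the trophectoderm, held 2.82% ± 0.0655 (SD, n = 2), from 218 and 237 counts. Tead3 (ENSMUSG00000002249.21, chromosome 17, 28331671 to 28350817, minus strand) held 1.3% ± 0.160. Its counts were 88 and 105, with exact Poisson intervals of 70.6 to 108 and 85.9 to 127.

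Tead2 (ENSMUSG00000030796.17, chromosome 7, 45215753 to 45233644, plus strand), best known from early embryos, held 0.544% ± 0.384 of the family sum and rested on 14 counts in replicate 1 and 18 in replicate 2. The exact Poisson intervals of those counts, 7.65 to 23.5 and 10.7 to 28.4, overlapped widely. Its TPM nevertheless differed (0.32 and 0.97), and in replicate 2 transcripts not annotated as coding held 0.84 TPM and coding ones 0.14 TPM. Cd37, a gene of leukocytes that overlaps Tead2 on the opposite strand, held 15 and 17 counts. Whether strand was used in counting is not given in the sources used here, so reads of these overlapping genes may be shared. In the separate quantification the Tead1 share of the family was 92.6% and 91.9%, and Tead4 held 5.03% ± 0.0556.

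Tead1 transcripts differed mainly by whether they held a 63-base coding exon and a 12-base coding exon. Tead1-202, which lacks both, took 42.6% of the gene's TPM in replicate 1 and 37.8% in replicate 2. Tead1-206, which holds both in 1308 coding bases against 1233 in Tead1-202, took 31.8% and 33.8%, and Tead1-201, with the same 1308 coding bases and a longer transcript, 12.3% and 12.4%. The separate quantification divided the same reads differently, with 39.4% and 44.1% for Tead1-201, 24.5% and 16.3% for Tead1-202, and 16% and 15.1% for Tead1-206. The leading Tead1 transcript therefore changed with the quantification, in the same way in both animals.

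The exons that separate these transcripts are printed here because the split of Tead1 rests on them; capitals are the exon and lower case the 12 bases of transcript on each side, 5′ to 3′, from GENCODE M21 transcripts on mm10. The upstream 63-base exon is at chr7:112841888-112841950, the downstream one at chr7:112842040-112842102 and the 12-base exon at chr7:112856053-112856064, all on the plus strand.
Tead1 upstream 63-base exon: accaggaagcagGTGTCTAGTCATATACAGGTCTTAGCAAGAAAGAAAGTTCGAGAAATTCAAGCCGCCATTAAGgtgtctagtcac
Tead1 downstream 63-base exon: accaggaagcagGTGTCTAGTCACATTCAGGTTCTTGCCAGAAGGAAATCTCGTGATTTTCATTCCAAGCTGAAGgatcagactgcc
Tead1 12-base exon: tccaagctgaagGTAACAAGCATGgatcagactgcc
The 63-base exons were identical to each other at 44 of 63 positions (69.8%). All 3 lengths are multiples of 3, so that inclusion keeps the reading frame.

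The downstream 63-base exon was nearly constant and the upstream one was not. Each inclusion value is a share of the TPM of transcripts that hold or skip that exon. Transcripts with the downstream exon took 98.9% in replicate 1 and 96.5% in replicate 2, and 95.7% and 92.7% in the separate quantification. Those with the upstream exon took 47.9% and 48.8%, and 62.5% and 65.1% in the separate quantification. The next shares are of all transcripts that span both exons, of which 1.75% and 1.22% held another exon there. Transcripts with both exons took 47.1% and 47.9% of that TPM, and those with the downstream exon alone 50.0495% and 47.5%. The upstream exon alone stood at 0 in replicate 1 and 0.294% in replicate 2. The 12-base exon was included at 53.4% and 59.8%, and at 69.3% and 79.6% in the separate quantification. For the upstream 63-base exon and the 12-base exon the animals were closer to each other than the quantifications were.

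Tead3 has the same pair of 63-base exons but annotated as alternatives to each other, and no annotated coding transcript of it holds both. Its upstream exon, at chr17:28336511-28336573, and its downstream one, at chr17:28336274-28336336, both on the minus strand, are printed for comparison with those of Tead1.
Tead3 upstream 63-base exon: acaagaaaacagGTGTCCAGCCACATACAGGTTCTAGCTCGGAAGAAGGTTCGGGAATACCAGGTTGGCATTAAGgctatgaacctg
Tead3 downstream 63-base exon: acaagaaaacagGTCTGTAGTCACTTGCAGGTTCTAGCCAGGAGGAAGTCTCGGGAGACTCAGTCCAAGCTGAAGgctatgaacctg
The exons in the same place were the more alike: the upstream exons of Tead1 and Tead3 were identical at 46 of 63 positions (73.0%) and the downstream ones at 51 (81.0%), whereas the crossed pairs were identical at 40 (63.5%) and 39 (61.9%). In the first transcript table the upstream exon took 100% of Tead3 coding TPM that spans the site in both animals, and in the separate quantification 75.4% and 81.1%. These Tead3 shares rest on few counts: 70.5 and 80.8 for the upstream exon in the first table, and 60.7 and 70.9 for the upstream and 11.1 and 9.4 for the downstream exon in the separate one.

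A further exon varied in Tead1 and in Tead4. A 174-base Tead1 exon at chr7:112876075-112876248 was included at 92.6% and 90.4%, and at 91.9% and 87.7% in the separate quantification. A 129-base Tead4 exon at chr6:128247960-128248088 (minus strand) was included at 70.2% and 66.1%, and at 56.0% and 59.8% in the separate quantification. Tead4-201, which carries it, led the gene with 70.2% and 66.0% of its TPM. Coding sequences were taken from the leading complete coding transcript of each gene, which for Nfia is Nfia-202. That of Tead3-206 begins with the codon ATA and that of Tead4-201 with ATT, whereas those of the other 8 genes begin with ATG. Identity between the coding sequences of TEAD genes ran from 69.4% (Tead1 and Tead2) to 73.8% (Tead3 and Tead4).

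The coactivators stood below Tead1 and the TEAD sum and above Tead2, Tead3 and Tead4. Yap1 (ENSMUSG00000053110.13, chromosome 9, 7931999 to 8004596, minus strand) had 1602 and 1686 counts, and Wwtr1 (ENSMUSG00000027803.14, chromosome 3, 57455649 to 57575910, minus strand) 1289 and 1315. Together they summed to 28.7 TPM in replicate 1 and 25.2 TPM in replicate 2, and Yap1 made up 61.2% and 60.2% of that sum. Summed TEAD TPM was 4.09 times that of YAP and TAZ in replicate 1 and 4.72 times in replicate 2, and 3.25 and 4.05 times in the separate quantification. These are ratios of RNA, and protein, phosphorylation and place in the cell were not measured.

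Yap1 transcripts differed by a 48-base coding exon at chr9:7950492-7950539 (minus strand), a multiple of 3, printed because the animals differed there.
Yap1 48-base exon: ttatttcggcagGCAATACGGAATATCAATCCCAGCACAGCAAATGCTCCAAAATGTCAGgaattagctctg
Capitals are the exon. Transcripts with the exon took 66.0% of the TPM that spans it in replicate 1 and 45.8% in replicate 2, and 73.7% and 58.2% in the separate quantification. The leading transcript of Yap1 was accordingly Yap1-201, which holds the exon, in replicate 1 (55.1% against 30.7% for Yap1-202) and Yap1-202 in replicate 2 (50.9% against 43.0%). In the separate quantification Yap1-201 led in both animals, at 47.7% and 48.9%. Yap1-203, a 453-base transcript not annotated as coding, held 7.78% in replicate 1 and stood at 0 in replicate 2, from 12.2 and 0 counts. It held 23.1% and 0 in the separate quantification. Wwtr1 showed no such split, since Wwtr1-201 took 100% of its TPM in both animals and both quantifications.

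The NFI genes were the most abundant of the 3 families and all 4 were well above the minor TEAD genes. They summed to 369 TPM in replicate 1 and 443 TPM in replicate 2, which was 3.14 and 3.72 times summed TEAD TPM and 12.9 and 17.6 times that of YAP and TAZ. Nfix (ENSMUSG00000001911.16, chromosome 8, 84699876 to 84800344, minus strand) made up 56.8% and 59.7% of the sum, and Nfic (ENSMUSG00000055053.18, chromosome 10, 81396186 to 81455635, minus strand) 26.4% and 25.4%. Nfib (ENSMUSG00000008575.17, chromosome 4, 82290173 to 82705750, minus strand) held 10.9% and 8.95%. Nfia (ENSMUSG00000028565.18, chromosome 4, 97772734 to 98118874, plus strand) held 6.00% and 5.91%. Nfix is the NFI gene studied most in muscle, and Nfia and Nfib are known from brain and lung development. The coding sequences of the 4 genes were identical at 68.4% (Nfib and Nfic) to 74.4% (Nfia and Nfix) of aligned positions.

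Nfix was read mainly from 2 coding transcripts, and a short transcript not annotated as coding set the animals apart. Nfix-201, with 1200 coding bases, took 53.6% of the gene's TPM in replicate 1 and 42.9% in replicate 2, and Nfix-204, with 1482 coding bases, 35.7% and 31.04%. Nfix-208, a processed transcript of 234 bases at the 3′ end of the gene (84704712 to 84707716), took 8.2% in replicate 1 and 23.7% in replicate 2, on 58.1 and 240 counts. Because TPM divides by length, those counts were 17.2 and 62.7 TPM. Coding transcripts of Nfix held 192 and 200.0 TPM, so the animals were closer on coding transcripts than on the gene (209.7 and 264 TPM). In the separate quantification Nfix-208 stood at 0 in both animals and coding transcripts held 158 and 164 TPM.

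The 2 leading Nfix transcripts differ by a 123-base exon at chr8:84723728-84723850 and a 148-base exon at chr8:84716141-84716288, among other stretches. Both exons are on the minus strand and held by Nfix-204. The transcripts differ at their ends as well, with Nfix-201 at 84708614 to 84800140 and Nfix-204 at 84704712 to 84773396. The 123-base exon is a multiple of 3 and the 148-base exon is not, and they are printed as internal coding exons that differ.
Nfix 123-base exon: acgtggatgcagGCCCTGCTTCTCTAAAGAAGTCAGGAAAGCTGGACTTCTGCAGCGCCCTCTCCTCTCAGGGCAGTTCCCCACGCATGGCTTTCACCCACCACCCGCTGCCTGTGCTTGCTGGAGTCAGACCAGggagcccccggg
Nfix 148-base exon: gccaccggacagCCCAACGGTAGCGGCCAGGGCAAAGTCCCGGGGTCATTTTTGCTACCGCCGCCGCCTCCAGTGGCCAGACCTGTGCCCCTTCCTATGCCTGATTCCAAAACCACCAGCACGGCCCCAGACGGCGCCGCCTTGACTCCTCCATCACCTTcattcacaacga
Capitals are the exon. The 148-base exon was included at 39.0% in replicate 1 and 41.03% in replicate 2, and at 40.4% and 43.0% in the separate quantification, so that animals and quantifications gave nearly the same value. The 123-base exon was included at 40.4% and 42.3% in the first quantification and at 54.3% and 56.8% in the separate one. The separate one gave 14% and 13.7% to Nfix-202, which holds the 123-base exon alone and had 1.34% and 0.96% in the first.

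Nfic held 1 leading transcript under both quantifications. Nfic-203 took 51.7% and 50.3% of its TPM, and 54.4% and 53.3% in the separate quantification. The next transcript was not settled: Nfic-207 took 29.5% and 30.4% in the first quantification and 0.217% and 3.56% in the separate one, which gave 27.8% and 27.0% to Nfic-204 instead. A 126-base Nfic exon at chr10:81406089-81406214 was included at 87.3% and 86.5%, and at 82.4% and 83.9% in the separate quantification.

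Nfib was read mostly from Nfib-202, at 71.7% in replicate 1 and 64.8% in replicate 2, and at 75.9% and 72.5% in the separate quantification. Its 83-base exon at chr4:82320474-82320556 was included at 18.7% and 27.9%, and at 13.5% and 19.3% in the separate quantification. Its 89-base exon at chr4:82310303-82310391 was included at 17.8% and 16.8%, and at 14.8% and 15.6% in the separate quantification. For Nfia the highest share, 37.9% and 35.1%, went to Nfia-207, whose annotated coding sequence is incomplete. The complete transcript Nfia-202 took 25.6% and 20.9%. A 92-base Nfia exon at chr4:98081725-98081816 was included at 73.3% and 67.7%. In the separate quantification its inclusion was 62.7% and 67.5%, so the animal with the higher value changed.

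**Figure D2:**
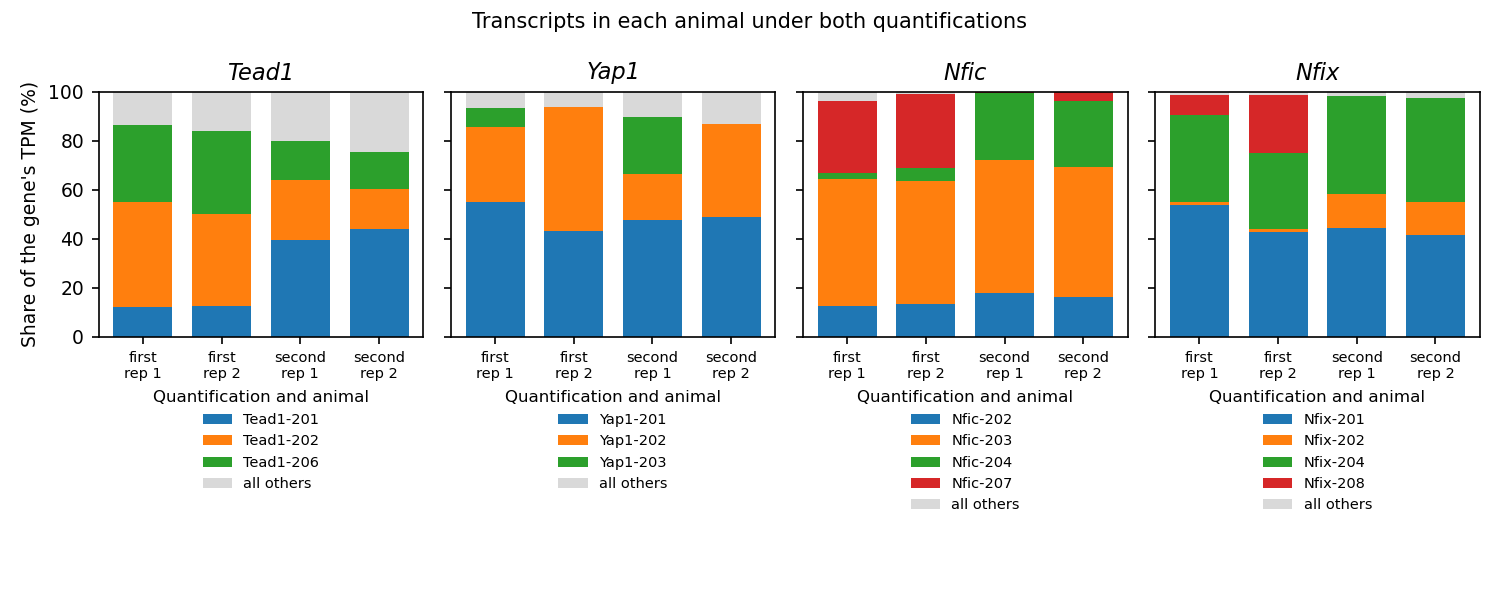
Share of each gene's TPM taken by its main transcripts, in percent, for Tead1, Yap1, Nfic and Nfix; each bar is 1 animal (rep 1 or rep 2) in the first or the separate (second) quantification, and grey is all other transcripts. Nfix-208 takes 8.2% and 23.7% in the first quantification and 0 in the separate one, and Tead1-201 goes from 12.3% and 12.4% to 39.4% and 44.1%.

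**Figure D3:**
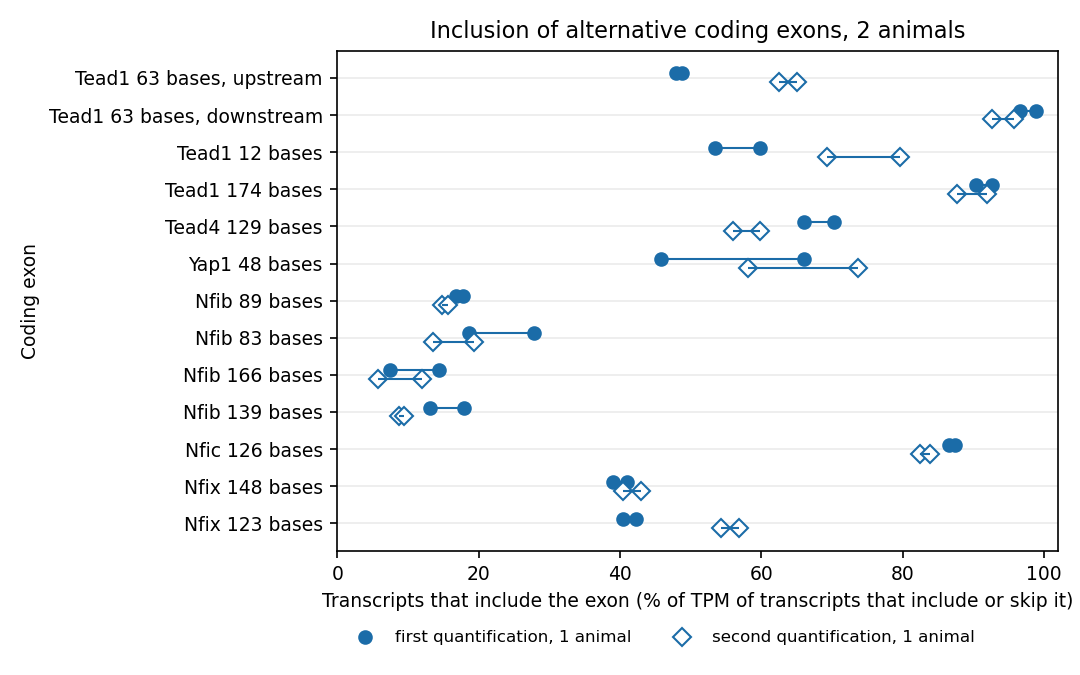
Inclusion of alternative coding exons, as the percent of TPM of transcripts that include or skip the exon; each circle is 1 animal in the first quantification and each diamond 1 animal in the separate one, joined by a line within a quantification. The Yap1 48-base exon has the widest gap between animals (66.0% and 45.8%), and the Nfix 148-base exon lies between 39.0% and 43.0% throughout.

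With 1 library per animal, the animals were compared by an exact two-sided conditional binomial test on counts, with libraries scaled by trimmed means (TMM) and p-values adjusted by Benjamini-Hochberg over 14101 genes. A p-value of this test compares the 2 libraries and covers counting error, not the spread between mice. Genes past an adjusted p of 0.05 are described as called, and 21.6% of all tested genes were called (10.7% in favour of replicate 2 and 10.8% in favour of replicate 1). Of the 10 genes, 4 passed: Nfia, Nfic and Nfix were higher in replicate 2 and Tead1 in replicate 1. Calls were more frequent at high counts, since 40.5% of genes at a mean count of at least 1000 were called, and the 4 are among the 7 genes described here at that depth.

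The 3 called NFI genes were higher in replicate 2 by small amounts. Nfic had 10150 counts in replicate 1 and 12907 in replicate 2, a log2 ratio of 0.20 (adjusted p = 5.46e-23, exact binomial test). Nfix had 14109 and 17299 counts and a log2 ratio of 0.14 (adjusted p = 6.72e-17, exact binomial test). Nfia had 2249 and 2773 counts and a log2 ratio of 0.15 (adjusted p = 0.00195, exact binomial test). Nfib, with 7249 and 8178 counts, had a log2 ratio of 0.02 (adjusted p = 0.539, exact binomial test). The median absolute log2 ratio over all tested genes was 0.158, so that Nfic lay above it and Nfix and Nfia did not; over genes at a mean count of at least 1000 it was 0.082, and all 3 lay above that.

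Tead1 had a log2 ratio of −0.06 and was called as higher in replicate 1 (adjusted p = 0.00302, exact binomial test). In size this ratio lay below the median of 0.082 over genes at a mean count of at least 1000. By TPM, Tead1 was not higher in replicate 1 (112.2 and 113.3 TPM). Wwtr1 had −0.12 (adjusted p = 0.115, exact binomial test) and Yap1 −0.08 (adjusted p = 0.305, exact binomial test), and neither was called. Tead2, Tead3 and Tead4 had 0.20, 0.10 and −0.03, with adjusted p of 0.868, 0.83 and 0.938 by the exact binomial test. At 14 to 237 counts a difference of this size was not detectable in these 3 genes.

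The direction of several ratios followed the scaling. Total counts moved the median log2 ratio of all tested genes from 0.006 to 0.118 and spike-in counts moved it to −0.144. Under total counts Tead1 turned to 0.06 (adjusted p = 0.00168, exact binomial test), and 5 of the 10 genes were called, all 5 higher in replicate 2. Of all tested genes 30.9% were then called, 25.7% higher in replicate 2 and 5.21% in replicate 1. Under spike-in counts Nfix stood at −0.0059 and Nfia at 0.0022, neither called, and 5 genes were called, Nfic higher in replicate 2 and Tead1, Yap1, Wwtr1 and Nfib higher in replicate 1. Of all tested genes 35.6% were then called, 4.60% higher in replicate 2 and 31.0% in replicate 1. Under an assumed biological coefficient of variation of 0.1 in edgeR's exact test, 2.06% of all genes and 0 of the 10 were called; the unadjusted p of the exact binomial test was under 0.05 in 5 of the 10, and in 4473 of the 14101 tested genes (31.7%).

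**Figure D4:**
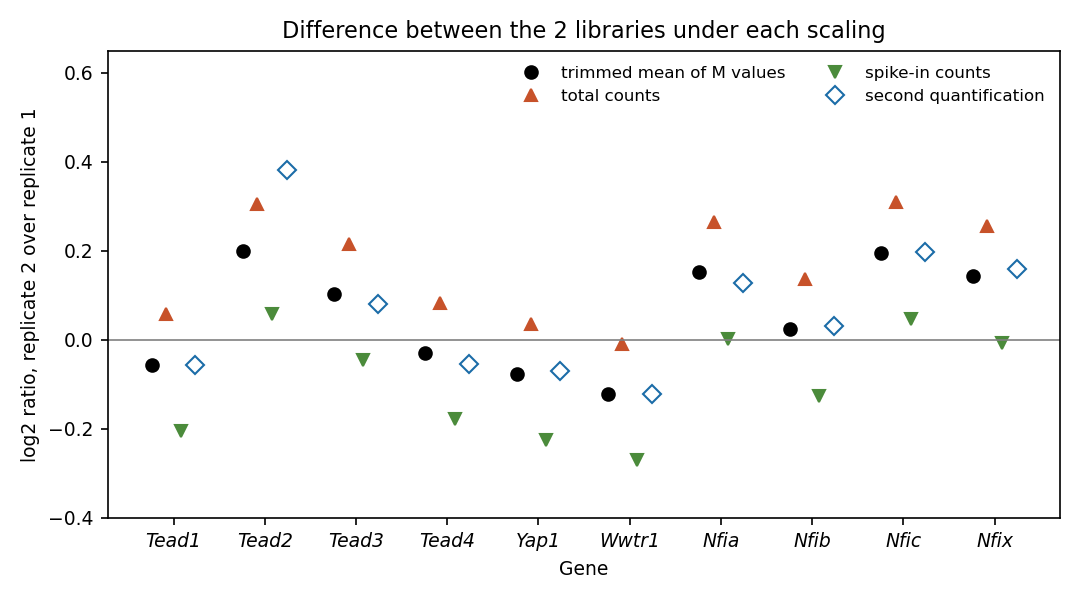
Log2 ratio of replicate 2 over replicate 1 for each gene under 4 settings: black circles for the trimmed mean scaling, triangles for total counts (up) and spike-in counts (down), and open diamonds for the separate quantification. Nfic is above 0 in all 4, and Tead1 is below 0 except under total counts (0.06).

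Markers of other cell types differed between the libraries as well. Their calls stand beside 21.6% of all tested genes called, and 40.5% of those at a mean count of at least 1000. Of 10 pericyte and smooth muscle markers 8 were called as higher in replicate 2, with a median log2 ratio of 0.47, led by level by Rgs5 at 58.4 and 66.5 TPM. Of 10 endothelial markers 6 were higher in replicate 2 and 1 in replicate 1 (median 0.30; Egfl7 15.5 and 14.9 TPM), and of 8 adipocyte markers 5 were higher in replicate 2 (median 0.31; Fabp4 55.7 and 64.0 TPM). Of 10 fibroblast markers 3 were higher in replicate 2 and 1 in replicate 1 (median 0.13; Gsn 123 and 150.3 TPM). Of 10 fibre markers 7 were higher in replicate 2 and 3, the slow and oxidative-fibre myosins Myh7 and Myh2 and the calcium release channel Ryr1, in replicate 1 (median 0.06). Under spike-in counts the split of called genes, higher in replicate 2 against higher in replicate 1, turned to 2 and 8 for the fibre list (median −0.09) and to 1 and 3 for the fibroblast list (median −0.02). The endothelial split became 3 and 1 (median 0.15), the adipocyte split 2 and 0 (median 0.17) and the pericyte split 7 and 1 (median 0.32). Over all tested genes 4.60% were higher in replicate 2 and 31.0% in replicate 1 under that scaling. Of 9 tested satellite cell markers 1 was higher in replicate 2 and 2 in replicate 1 (Itga7 27.3 and 29.2 TPM). Fewer were called in the tendon (1 of 7 higher in replicate 2, Thbs4 21.8 and 21.6 TPM) and nerve lists (1 of 8 higher in replicate 2, Mbp 12.2 and 12.9 TPM). In the macrophage list 0 of 7 tested were called (Lyz2 5.18 and 6.3 TPM). The part of these cells in the levels of the 10 genes was not tested.

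Upstream of YAP and TAZ, all 25 listed Hippo genes were found and 24 were tested. Of these, 2 were higher in replicate 2, 6 were higher in replicate 1 and 16 were not called, with a median log2 ratio of −0.08. Under total counts the split of calls was 7 higher in replicate 2 to 0 higher in replicate 1, and under spike-in counts 1 to 13. Over all tested genes the shares were 25.7% and 5.21% under total counts, and 4.60% and 31.0% under spike-in counts. With the trimmed mean scaling 21.6% of all tested genes were called. The same shares apply to the lists that follow. The angiomotins Amotl1 and Amot, scaffold proteins that hold YAP at the membrane, led the list by level, and Amotl2 held 5.25 and 5.31 TPM. Amotl1 held 170.5 and 159 TPM, above Tead1, and was not called (log2 ratio −0.01, adjusted p = 0.697, exact binomial test). Amot held 49.1 and 45.3 TPM with a log2 ratio of −0.10 (adjusted p = 0.00102, exact binomial test). Nf2, which encodes merlin, held 25.7 and 23.07 TPM (−0.16, adjusted p = 0.00103, exact binomial test), and Limd1, an inhibitor of LATS, 20 and 18.8 TPM (−0.06, adjusted p = 0.344, exact binomial test). The core kinases were lower: Stk3 held 1.59 and 1.79 TPM, Stk4 3.52 and 3.59 TPM, Lats1 4.72 and 4.11 TPM and Lats2 9.69 and 7.34 TPM, and none of these was called. They were named for their role and after their values were seen.

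The Hippo genes furthest apart between the libraries were scarce. Fat4, an atypical cadherin, held 0.65 and 1.07 TPM (log2 ratio 0.73, adjusted p = 4.14e-10, exact binomial test). Taok3, a kinase upstream of MST, held 1.86 and 1.21 TPM (−0.55, adjusted p = 0.0244, exact binomial test), a call that was lost under total counts (adjusted p = 0.073, exact binomial test).

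Of 6 TEAD cofactors, Yap1 and Wwtr1 included, 5 were tested and 1 was called. This was Vgll2, a vestigial-like partner of TEAD known from muscle, which held 29.6 TPM in replicate 1 and 18.5 TPM in replicate 2 (log2 ratio −0.63, adjusted p = 3.46e-19, exact binomial test). Its level was above that of Yap1 in each animal. Vgll4, which competes with YAP for TEAD, held 7.24 and 8.24 TPM (0.23, adjusted p = 0.0878, exact binomial test), and Vgll1 had no counts in either library.

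Among 22 genes listed as targets of YAP and TEAD, 20 were tested, of which 2 were higher in replicate 2, 5 were higher in replicate 1 and 13 were not called (median 0.05). Under total counts the split was 7 to 4 and under spike-in counts 0 to 8. The matricellular genes Ccn1 and Ccn2, often used as reporters of YAP activity, were named for the largest ratios in the list. Both were higher in replicate 1. Ccn1 held 14.9 TPM there and 6.03 TPM in replicate 2 (log2 ratio −1.27, adjusted p = 1.54e-41, exact binomial test). Ccn2 held 6.65 and 3.83 TPM (−0.77, adjusted p = 2.48e-09, exact binomial test). Ankrd1, also used as a reporter, held 3.23 and 3.28 TPM and was not called (0.10, adjusted p = 0.761, exact binomial test). Amotl2 was not called either (−0.13, adjusted p = 0.4, exact binomial test). YAP activity was not tested. Axl, a receptor kinase, was higher in replicate 2 at 12.6 TPM against 9.09 TPM (0.20, adjusted p = 0.0302, exact binomial test). The most abundant of the list, Crim1, held 33.1 and 32.03 TPM (−0.20, adjusted p = 1.28e-07, exact binomial test), and Arhgef17 17.2 and 17.1 TPM (0.07, adjusted p = 0.252, exact binomial test). Lats2, Amotl2 and Ptpn14 stand in this list and in the Hippo list.

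Of 14 muscle genes reported to carry M-CAT or TEAD sites, 5 were higher in each library and 4 were not called (median −0.12). Those higher in replicate 2 were Acta1 (17309 and 17814 TPM), Ckm, Des (1051 and 1111 TPM), Mef2c (177 and 204 TPM) and the smooth muscle actin Acta2. Those higher in replicate 1 were the slow and cardiac genes Myh7 (257 and 175 TPM), Myh6, Tnni1 (124 and 71.2 TPM; log2 ratio −0.77) and Pln, and the myogenic factor Myog at 6.83 and 1.71 TPM (−1.95, adjusted p = 6.14e-26, exact binomial test). Under spike-in counts Acta1 (−0.08), Ckm (−0.015), Des (−0.03) and Mef2c (−0.04) turned below 0, and the split was 1 to 11 (median −0.27). Under total counts it was 6 to 5.

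Among 8 muscle genes linked to NFIX, 4 were higher in replicate 2, 1 in replicate 1 and 3 were not called (median 0.13). Ckm and the muscle enolase Eno3 (2931 and 3154 TPM) were among the 4, as was Mstn, the growth inhibitor myostatin, at 25.9 and 28.1 TPM (0.15, adjusted p = 0.0118, exact binomial test). Under spike-in counts Ckm stood at −0.015, Eno3 at −0.03 and Mstn at −0.002 (adjusted p = 1 for Mstn, exact binomial test), and the split was 0 to 4. The 1 gene higher in replicate 1 was Myh7, the slow myosin. Sox6, a repressor of slow fibre genes, held 76.7 and 76.6 TPM (−0.03, adjusted p = 0.397, exact binomial test).

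Of the 34 transcription factors, 8 of which are TEAD or NFI genes, 33 were tested, 9 were higher in replicate 2, 9 were higher in replicate 1 and 15 were not called (median −0.02). Under total counts the split was 16 to 7 and under spike-in counts 4 to 19. Nfatc2, a calcium-regulated factor, held 3.21 and 5.61 TPM (log2 ratio 1.11, adjusted p = 3.05e-34, exact binomial test). Of the 10 list genes named for their ratio, Ccn1, Myog, Tnni1 and Nfatc2 were also called under an assumed variation of 0.1 in edgeR's exact test. Fat4, Taok3, Vgll2, Ccn2, Myh7 and Mstn were not, with adjusted p from 0.0576 for Ccn2 to 1 for Mstn in that exact test.

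The M-CAT element was searched in RefSeq promoters of GRCm38.p6, from 250 bases before to 50 after each start, as the letters CATTCC or GGAATG, which are the same motif on either strand. The table held 7 of the 10 genes (Tead2, Tead3, Yap1, Wwtr1, Nfia, Nfic and Nfix), and 3 of these, Tead3, Yap1 and Wwtr1, held the motif. It occurred in 16.6% of 27025 genes and 14.7% of 32851 promoters. In the lists it was found for 5 of 6 TEAD cofactors (Yap1 and Wwtr1 among them), 7 of 15 YAP and TEAD targets, 6 of 12 muscle genes with reported sites, 3 of 8 muscle genes linked to NFIX, 7 of 21 Hippo genes and 4 of 23 muscle transcription factors. The windows of Yap1 (chr9:8004712-8004757), Wwtr1 (chr3:57576021-57576066) and 1 of 3 matches of Tead3 (chr17:28350962-28351007), all on the minus strand, are shown beside those of Acta1 (chr8:123894796-123894841, minus strand), Tnnt2 (chr1:135836287-135836332, plus strand) and Ccn1 (chr3:145650063-145650108, minus strand), to set the genes beside muscle genes and a YAP target.
Yap1 promoter: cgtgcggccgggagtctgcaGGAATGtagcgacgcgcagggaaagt
Wwtr1 promoter: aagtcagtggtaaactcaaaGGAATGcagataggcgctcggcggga
Tead3 promoter: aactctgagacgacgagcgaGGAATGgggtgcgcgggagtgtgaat
Acta1 promoter: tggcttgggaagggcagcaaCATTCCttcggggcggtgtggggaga
Tnnt2 promoter: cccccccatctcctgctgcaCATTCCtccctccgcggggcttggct
Ccn1 promoter: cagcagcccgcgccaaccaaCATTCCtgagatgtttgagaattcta
Capitals are the motif with 20 bases on each side, 5′ to 3′ on the strand of the gene. The short NFI site, TTGGC or GCCAA, was found for 3 of the 7 genes and for 50.4% of all genes in the table, and the full palindrome, TTGGC and GCCAA with any 5 bases between, was found for 0 of the 7 and for 0.044% of all genes. A match is a run of letters and no evidence of binding.

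Reads of the 10 genes could be told from those of other genes nearly throughout their length. Of the 31-base words in their transcripts, 98.1% (Yap1) to 99.97% (Nfic) occurred in no other gene, and family members shared at most 34 words with each other. Overlapping genes on the opposite strand were low beside the abundant members: 2310014F06Rik at Tead1 had 168 and 114 counts, Gm11266 at Nfib 90 and 112, and Lyl1 at Nfix 9 and 18.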

How the data were processed

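Per the labels, 300 ng of total RNA per muscle went into a directional kit after reduction of ribosomal RNA, with external spike-ins and 1 library per animal. The deposited README names mm10 and GENCODE M21 for every table. It says that the gene table and 1 transcript table (the first quantification) were derived from alignments to the transcriptome, and the other transcript table (the second or separate quantification) directly from reads with an index. Aligner, versions and strand setting are not given in the sources used here. The authors' deposited expected counts are estimated numbers of reads and carry no normalization. The authors' deposited TPM values are scaled for length and to a fixed sum, which includes the spike-ins. The deposited percent column is the share of a transcript in its gene, per the file headers. Shares in the other transcript table were computed from its TPM. The 96 spike-ins and 26249 further entries that are no genes, with 161 counts, were left out of totals and tests.

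For tests, expected counts were rounded, and TMM factors (trimmed mean of M values) came from edgeR 4.0.16 in R 4.3.3. A quasi-likelihood test cannot be fitted with 1 library a side. Genes whose mean count reached 10 therefore entered an exact conditional binomial test (scipy 1.17.1), and ratios had a prior of 1 count. The test was checked on simulated data for 14121 genes with counting noise only. It called 100% of genes set to 0.5-fold, 80% at 0.667-fold, 96% at 1.5-fold, 100% at 2-fold and 0.108% of unchanged genes. The changed genes were drawn only from those at a mean count of at least 100. These detection rates therefore do not cover scarcer genes, such as Tead2 and Tead3. A chi-square of the counts gave 94.4 per degree of freedom between the libraries, more than sampling noise, and they were kept as 2 samples. The labels number separate animals under 1 donor identifier, so the spread between them may be technical in part. Exon inclusion is the summed TPM of transcripts that hold an exon over that of transcripts that hold or skip it. Coding sequences of the leading complete coding transcript of each gene were aligned with Biopython 1.88. The alternatives were size factors of DESeq2 1.42.0, scaling by total or spike-in counts, other count minimums (50 or none), a prior of 0.5, an assumed variation of 0.1, the second quantification, protein-coding transcripts alone, another denominator of TPM and each animal left out.

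Members and gene lists were chosen with earlier results of these data known. Named were all members, the 4 most abundant genes of each pathway list and its 2 called genes with the largest ratio at a mean count of at least 100, the most abundant gene of each marker list and transcripts with a mean share of 10% or more. Exons and genes outside this rule were chosen after their values were seen. Parental alleles were not separated.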

Additional observations from a re-analysis of the deposited data

How the results depend on the processing

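The summed level of the 10 genes, 551 TPM, was 410.2 TPM in the second quantification, 1268 when TPM was rescaled over nuclear protein-coding genes alone, and 516 to 587 with either animal left out. The Tead1 share of TEAD TPM (95.3%) was 92.2% in the second quantification and 95.9% over protein-coding transcripts, the Yap1 share (60.7%) 64.7% and 58.4%, and the Nfix share (58.2%) 54.4% and 54.2%. With either animal left out they ran from 95.2% to 95.4%, 60.2% to 61.2% and 56.8% to 59.7%. In the second quantification 6 genes kept their place in the order. Log2 ratios changed sign under total counts for Tead1 (0.0571), Tead4 (0.083) and Yap1 (0.0366), and under spike-in counts for Tead3 (−0.0447), Nfib (−0.126), Nfix (−0.0059) and the list gene Mstn (−0.002). Of 80 called list genes, TEAD and NFI genes included, 3 changed sign under total counts and 15 under spike-in counts, 2 and 8 of them called in the opposite direction. Yap1 and Wwtr1 were called under spike-in counts (−0.23 and −0.27) and Nfib under both of these scalings. An assumed variation of 0.1 left 291 of 3043 called genes, 0 of 4 members and 11 of 80 list genes, and spike-in counts gave 5018 called genes. The cause was not tested beyond the construction of each scaling. No paired analysis was possible because the labels name 1 group. Leaving out a library leaves no comparison of the 2. Depth limits Tead2, Tead3 and Tead4, whose differences between the libraries were not detectable at 14 to 237 counts.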
